A study of Mus musculus with 4 samples.

Results

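A set of 9 genes of lymphocyte homing, egress and retention was followed across the leukocytes of KPC tumors, namely Klf2, S1pr1, Ccr7, Cxcr5, Gpr183, Cxcr4, Cd69, Itga4 and Itgb7. They were taken as a list of gene symbols, and all 9 were found once each among the 32285 genes counted. The leukocytes came from subcutaneous syngeneic tumors of the KPC line, a mouse pancreatic cancer line grown in C57BL/6 mice. Mice of the untreated group received no agonist. A STING agonist group received ADU-S100, a synthetic cyclic dinucleotide that activates the innate sensor STING, once by intratumoral injection. An LTβR agonist group received 4H8, an agonistic antibody against the lymphotoxin-β receptor, repeatedly by intraperitoneal injection. The combination group received both agonists. All 4 groups carried the same tumor line. Tumors of a group were pooled, live CD45+ cells were sorted, and 1 droplet library with 5-prime chemistry was made per group, so no value per animal exists. Single-cell profiling was done more than once in the study, and the labels do not say which round gave these data.

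Leukocytes enter, stay in or leave a tissue according to chemoattractant receptors and adhesion molecules on their surface. Klf2 is a transcription factor of quiescent lymphocytes that drives transcription of S1pr1, the receptor for sphingosine-1-phosphate through which lymphocytes exit into blood or lymph. CD69, the product of Cd69, binds that receptor and removes it from the cell surface, which holds activated cells in place. CCR7, CXCR5 and GPR183 guide cells to the T cell zone, the B cell follicle and the border between them, CXCR4 responds to CXCL12 and retains cells in marrow and tissue, and the integrin chains α4 and β7 bind VCAM-1 and, as a pair, the gut addressin MAdCAM-1.

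After filtering, 23011 of 24839 barcodes remained, with 3748 to 7147 cells and medians of 5750 to 7094 UMIs (counted molecules) per library. Cells were clustered without the 9 genes and their companions of the same pathway, and clusters were named from marker genes. The T-like class held 1925, 1363, 2133 and 2072 cells, given here and below first for untreated tumors, then for the STING agonist, the LTβR agonist and the combination. The macrophage- or monocyte-like class held 3103, 1492, 2962 and 1833 cells, the NK-like class 494, 272, 724 and 384, and the dendritic-like class 770, 249, 538 and 312. Neutrophil-like cells numbered 227, 304, 380 and 68, and B- and plasma-like cells 59, 15, 176 and 539. In each class the summed level of its own markers exceeded that in the other classes, for example 4358 to 4973 CPM (counts scaled to a fixed total of UMIs, defined below) of the 10 T cell markers in T-like cells against at most 653 elsewhere. Clusters with 617 cells in all were left unnamed, since 1 of them showed T cell and macrophage markers together and the other rested on too few detected markers. The 15 B- and plasma-like cells of the STING agonist library also held 4792 CPM of neutrophil markers against 134 CPM in the untreated library. Among filtered cells, 246 barcode sequences occurred in more than 1 library, which touched 492 cells. Levels are UMIs summed over the cells of a class and divided by all UMIs of that class, scaled as counts per 1e6 (CPM), with exact Poisson 95% intervals, and they compare 1 gene between classes and libraries, not 1 gene with another. With 1 library per group no difference could be tested against replicate spread. Every interval below covers counting error only. Comparisons with untreated all share the untreated library.

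Each of the 9 genes had its own order of classes (plot of levels by class and library). S1pr1 was a lymphocyte gene, with class means over the 4 libraries of 108 CPM in B- and plasma-like, 63.3 CPM in T-like and 25.8 CPM in NK-like cells, and its ranges in these classes did not overlap. In the 3 myeloid classes S1pr1 never exceeded 3.91 CPM. Cxcr5 was found almost wholly in B- and plasma-like cells, at 167 to 240 CPM, with no more than 26.6 CPM elsewhere. Ccr7 was highest in dendritic-like cells, at 604 to 868 CPM, followed by B- and plasma-like cells at 156 to 303 CPM, T-like cells at 38.1 to 71.5 CPM and NK-like cells at 12.2 to 24.2 CPM. None of these ranges overlapped with its neighbor. For Klf2, B- and plasma-like cells (557 to 996 CPM) and neutrophil-like cells (576 to 726 CPM) overlapped each other and stood above all others. Cxcr4 was highest in neutrophil-like cells (356 to 516 CPM) and lowest in dendritic-like cells (91.4 to 106 CPM), while NK-like, B- and plasma-like and macrophage- or monocyte-like cells overlapped. Gpr183, Cd69 and Itga4 each had their highest mean in B- and plasma-like cells, where the few cells of the STING agonist library gave the top value, and in each case the range overlapped with that of the next class. Itgb7 ran from 170 to 216 CPM in NK-like cells to 35.5 to 58.5 CPM in neutrophil-like cells, with overlapping ranges between NK-like, T-like and dendritic-like cells.

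**Figure D1:**
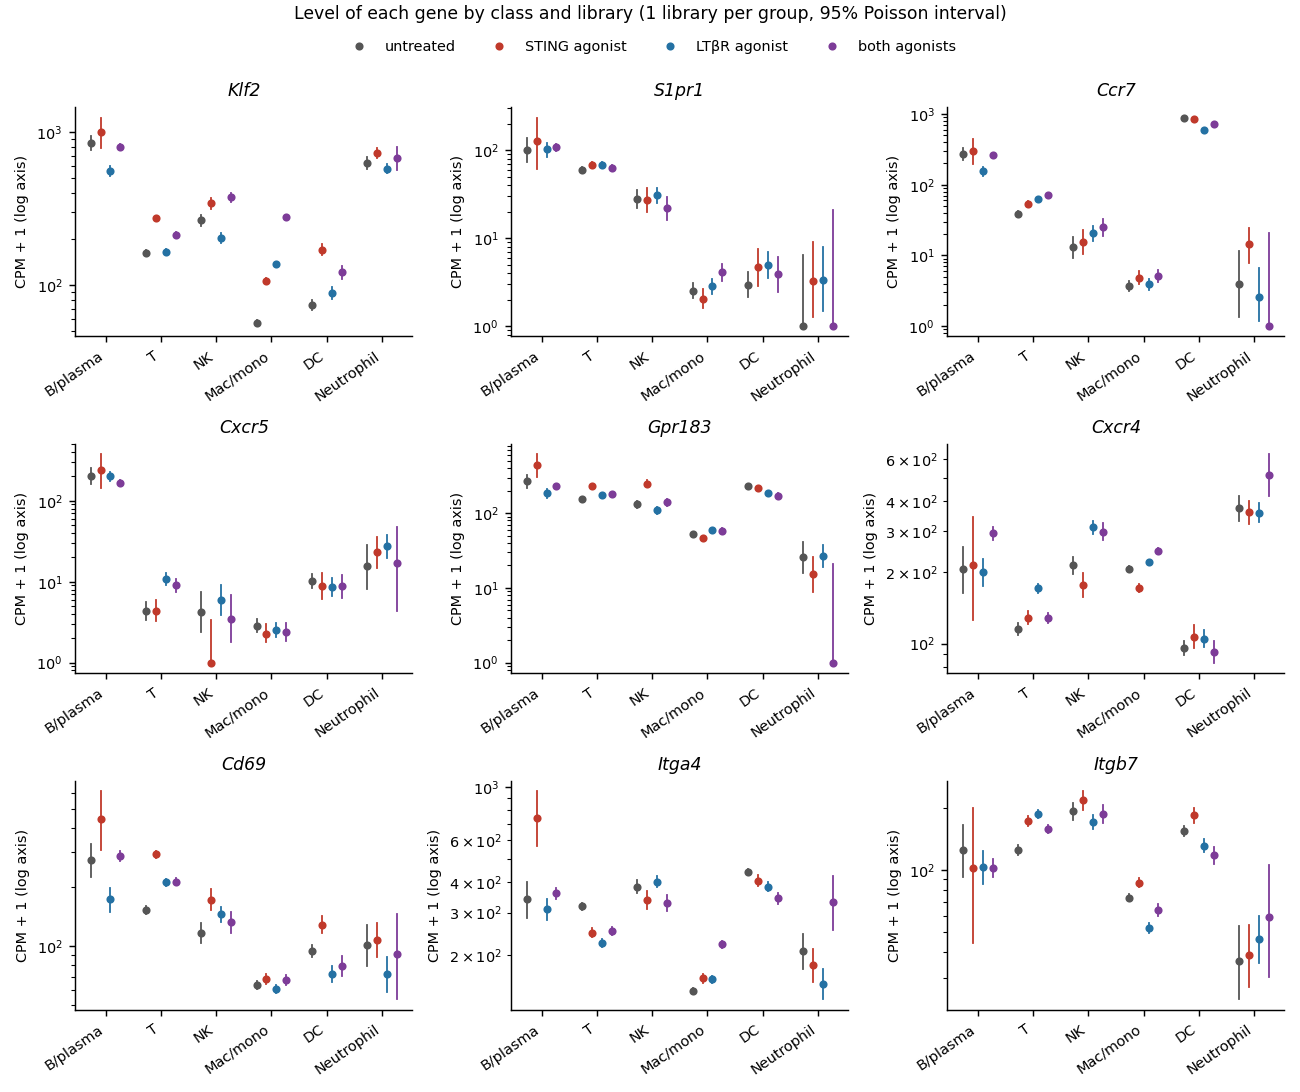
Level of each of the 9 genes in CPM plus 1 on a log axis, by class and library; points are UMIs summed over the cells of a class in 1 library, and lines are exact Poisson 95% intervals. S1pr1 and Cxcr5 separate lymphoid from myeloid classes or B- and plasma-like cells from the rest in all 4 libraries, and Klf2 in macrophage- or monocyte-like cells spreads from 55.7 to 279 CPM.

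Droplet data hold free RNA, so detection was also counted at an equal depth of 1000 UMIs per cell. S1pr1 was then found in 6.64% to 7.91% of T-like cells and in at most 0.570% of macrophage- or monocyte-like cells, the class taken here as a low reference. Whether the few S1pr1 UMIs of that class were free RNA or the cells' own was not tested. Without thinning the shares were 19.0% to 20.2% and 0.938% to 1.75%. In NK-like cells the thinned share was 2.69%, 3.7%, 3.56% and 1.08%, and its interval in the combination (0.296% to 2.75%) overlapped with that of the untreated library (1.44% to 4.55%). Cxcr5 was found in 14.8% to 20.6% of thinned B- and plasma-like cells and in 0.138% to 0.199% of macrophage- or monocyte-like cells. In thinned T-like cells Cxcr5 was found in 0.429%, 0.378%, 1.56% and 0.798% of cells, so the 2 libraries with LTβR agonist held the higher shares and the interval in the LTβR agonist library (1.07% to 2.20%) lay above that of the untreated library (0.185% to 0.843%).

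A difference of 1.5-fold or more on the scale of log2(CPM + 10), in a gene with at least 50 UMIs in 1 of the 2 libraries of the class, was counted as past the threshold. Across the 6 classes, 8 of 42 measured pairs of a gene and a class passed it in the STING agonist library over untreated, all 8 upward, against 2.9% of all gene and class pairs. With the LTβR agonist, 4 of 47 pairs passed, 1 upward and 3 downward, against 2.94%. With the combination, 5 of 45 pairs passed, all upward, against 5.25%. These pooled shares weigh the classes differently. B- and plasma-like cells gave 7 of the 42 pairs with the STING agonist, but 1119 of the 39528 pairs of all genes. The shares by class, given below, are therefore the closer comparison. Of the 17 passing pairs, 7 were Klf2, 3 were Cd69, 3 were Itga4, 2 were Gpr183 and 2 were Ccr7, and no pair of S1pr1, Cxcr5, Cxcr4 or Itgb7 passed. By class, the STING agonist gave 2 of 8 measured genes in T-like cells (1.67% of all genes), 1 of 7 in NK-like cells (3.56%), 1 of 8 in macrophage- or monocyte-like cells (0.19%), 1 of 8 in dendritic-like cells (1.03%), 0 of 4 in neutrophil-like cells (11.1%) and 3 of 7 in B- and plasma-like cells (33.2%). That last share was the highest of all classes and comparisons, and only 15 B- and plasma-like cells stood behind it. The 3 genes there were Itga4 at 1.11 (0.48 to 1.72), Gpr183 at 0.71 (-0.06 to 1.46) and Cd69 at 0.67 (-0.10 to 1.42), and the intervals of the last 2 included 0. Scaling to the median gene in place of all UMIs shifted that comparison by 0.18, and no other by more than 0.1. With the LTβR agonist, 1 of 8 genes passed in macrophage- or monocyte-like cells (1.48%) and 3 of 9 in B- and plasma-like cells (11.8%). None passed of 9 in T-like cells (1.84%), of 8 in NK-like cells (1.14%), of 8 in dendritic-like cells (1.17%) or of 5 in neutrophil-like cells (10.5%). The combination gave 1 of 9 genes in T-like cells (1.59%), 2 of 8 in macrophage- or monocyte-like cells (2.68%), 1 of 8 in dendritic-like cells (3.14%), 1 of 4 in neutrophil-like cells (16.8%), 0 of 7 in NK-like cells (4.62%) and 0 of 9 in B- and plasma-like cells (14.1%).

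**Figure D2:**
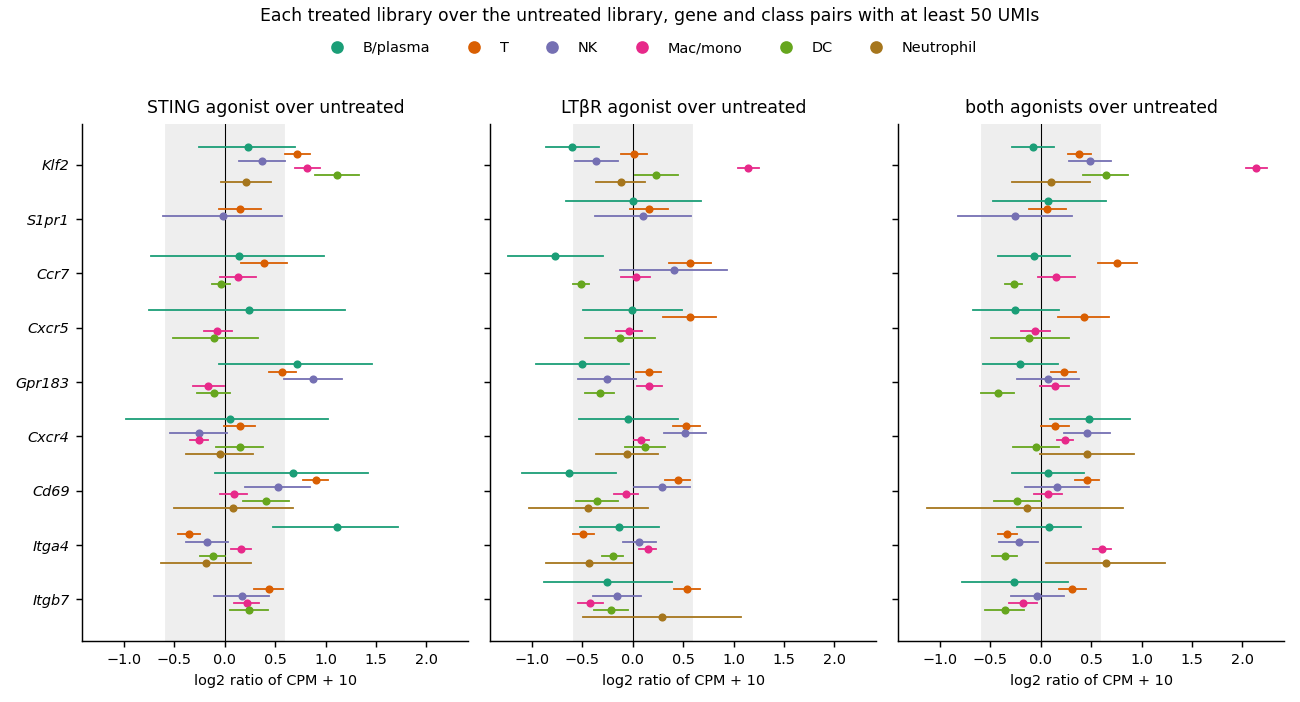
Log2 ratio of CPM plus 10 of each treated library over the untreated library, for gene and class pairs with at least 50 UMIs; lines are intervals from opposite exact Poisson bounds and the gray band marks less than 1.5-fold. Klf2 in macrophage- or monocyte-like cells lies farthest to the right under both agonists, at 2.14.

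Klf2 (chr8:72319033-72321656, plus strand, mm10) carried the largest differences of the set, and they lay in myeloid cells. The 250 bases before its RefSeq start site (chr8:72318812-72319061, plus strand, RefSeq on GRCm38.p6, the same build) are shown because Klf2 moved in more classes than any other of the 9 genes. The capitals mark GGGTG, which reads CACCC on the other strand, the core letters that factors of the KLF family read. They occur once in this window, beginning 19 bases before the RefSeq start site. The gene coordinates above, from GENCODE, begin earlier, at 72319033, so the match lies inside the gene as annotated there. At least 1 match on either strand is in 17087 of 32851 promoter entries of this length (52%), so the letters are common.

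Klf2 promoter: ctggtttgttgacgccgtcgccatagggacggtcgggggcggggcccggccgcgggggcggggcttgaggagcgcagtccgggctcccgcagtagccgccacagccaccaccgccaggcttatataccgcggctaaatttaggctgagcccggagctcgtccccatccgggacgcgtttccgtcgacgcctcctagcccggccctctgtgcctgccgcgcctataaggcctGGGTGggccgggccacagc

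The match is a description of letters and no evidence of binding. Promoter entries were held for 5 of the 9 genes (Klf2, Cxcr4, Itga4, Gpr183 and Itgb7), and not for S1pr1, Ccr7, Cxcr5 and Cd69. A FOXO-type sequence, GTAAACA on either strand, was in none of these 5 windows and in 3.17% of all entries.

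In macrophage- or monocyte-like cells Klf2 stood at 55.7 CPM (53.0 to 58.6), 106 CPM (101 to 111), 135 CPM (131 to 140) and 279 CPM (271 to 288), lowest in untreated tumors and highest under both agonists. No 2 of these intervals overlapped, and each agonist alone lay between untreated and the combination. Over untreated the log2 differences were 0.82 (0.69 to 0.94), 1.15 (1.04 to 1.25) and 2.14 (2.03 to 2.24). The combination also exceeded the STING agonist alone by 1.32 and the LTβR agonist alone by 0.99 on the log2 scale. Detection followed the same order, with Klf2 in 5.11%, 8.34%, 10.6% and 21.0% of thinned cells of the class. The summed level of 12 tissue-dissociation and stress genes ranged from 5408 to 6684 CPM in this class and was lowest in the LTβR agonist library. Single genes of the list differed more, with 2, 3 and 4 of 12 past 1.5-fold upward in the 3 treated libraries, among them Hspa1b at 2.41 under LTβR agonism and 1.21 when both were given. Without the tenth of cells highest in these genes, the combination difference was 2.23.

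The class held 9 clusters, and Klf2 differed more between clusters than between libraries (plot of Klf2 and Itga4 by cluster). In untreated tumors it ranged from 13.2 CPM in a cluster led by Lrmda, Psd3 and Nrg1 to 565 CPM in one led by Ace, Adgre4 and Ear2, genes of patrolling monocytes. The combination library held more Klf2 than the untreated library in 9 of 9 clusters, 8 of them past 1.5-fold, with log2 differences of 0.42 to 2.80. With the STING agonist it was higher in 8 of 9 clusters and with the LTβR agonist in 8 of 9, of which 5 and 3 were past 1.5-fold. The share of the Ace, Adgre4 and Ear2 cluster in the class was 2.13%, 2.01%, 7.39% and 12.5%, and that of a cluster led by Retnla, Ccl8 and Mrc1 was 2.77%, 2.88%, 7.83% and 17.3%. The cluster led by C1qb, C1qa and C1qc, where Klf2 never exceeded 64.0 CPM, made up 37.9%, 36.2%, 15.7% and 12.4%. With each cluster given equal weight, the combination difference was 1.15, the STING agonist difference 0.65 and the LTβR agonist difference 0.43, so only the first 2 stayed past 1.5-fold. In the Ace, Adgre4 and Ear2 cluster itself Klf2 was 565, 704, 586 and 1151 CPM, where the combination stood apart and the LTβR agonist library lay near untreated. In the Retnla, Ccl8 and Mrc1 cluster it was 67.4, 318, 270 and 314 CPM, where all 3 treated libraries lay together above untreated.

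**Figure D3:**
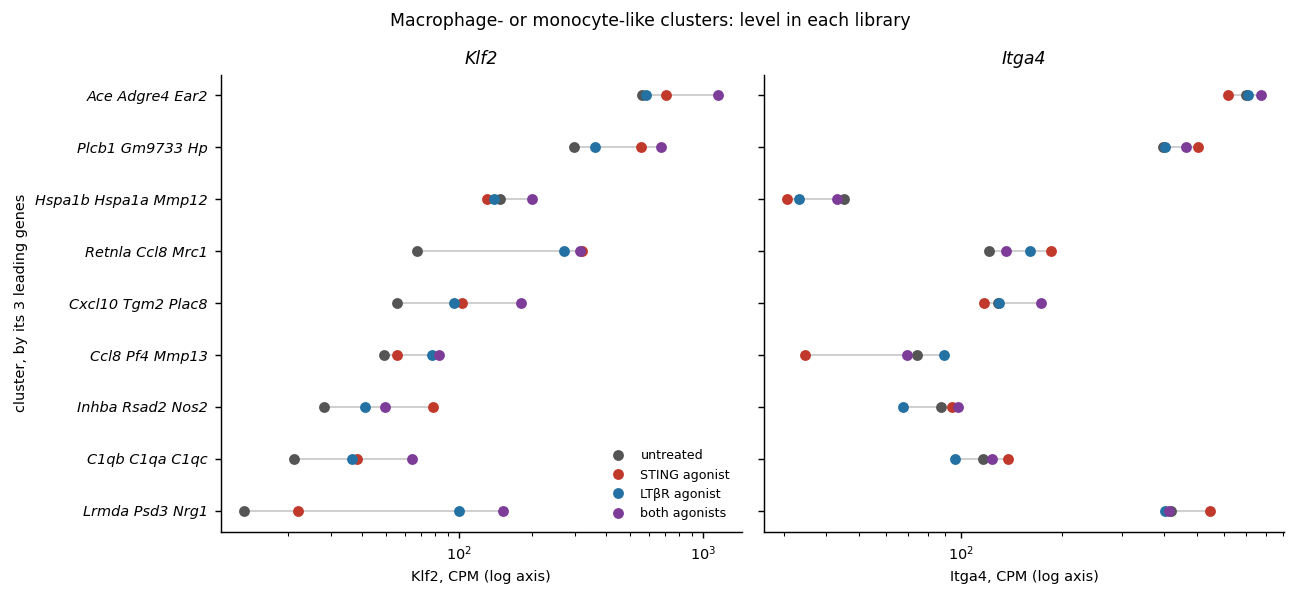
Klf2 (left) and Itga4 (right) in CPM on log axes in the 9 clusters of the macrophage- or monocyte-like class, named by their 3 leading genes, 1 point per library. The combination point for Klf2 lies right of the untreated point in all 9 clusters, while for Itga4 the points of most clusters lie close together and clusters differ from each other.

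In dendritic-like cells Klf2 was 73.3 CPM (67.7 to 79.2), 170 CPM (155 to 185), 87.8 CPM (80.4 to 95.7) and 120 CPM (109 to 132), so the STING agonist library was highest and the LTβR agonist library nearest to untreated. The log2 difference was 1.11 (0.89 to 1.33) with the STING agonist and 0.64 (0.42 to 0.87) with the combination. The same libraries were high in cells with a UMI of Fscn1, an actin-bundling protein of mature dendritic cells, where Klf2 was 33.0, 125, 43.0 and 159 CPM. In dendritic-like cells without Fscn1, it was 83.2, 179, 98 and 113 CPM. The stress genes summed to 3922, 5457, 3265 and 3893 CPM here, and all 12 were higher with the STING agonist. Without the tenth of cells highest in them, the STING agonist difference was 0.67, still past 1.5-fold. Macrophage markers summed to 1863, 2287, 2264 and 3910 CPM in dendritic-like cells, highest in the combination, and their part in the Klf2 difference was not tested.

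In T-like cells Klf2 was 161 CPM (154 to 169), 272 CPM (260 to 283), 163 CPM (155 to 170) and 213 CPM (205 to 221). Over the whole class the LTβR agonist library matched untreated within counting error, and the STING agonist library was highest, with a log2 difference of 0.72 (0.60 to 0.84). Klf2 was higher with the STING agonist in 8 of 8 T-like clusters with at least 20 cells in both libraries, 3 of them past 1.5-fold, and with equal weight per cluster the difference was 0.51, under the threshold. With the LTβR agonist the clusters went both ways, from -0.95 to 1.41. Of the 8 clusters, 4 were higher (1 past 1.5-fold) and 4 lower (2 past it), and with equal weight the difference was -0.33. In NK-like cells the level was 264, 343, 203 and 374 CPM. Over the class the 2 libraries with STING agonist were above untreated and the LTβR agonist library was below it, at log2 differences of 0.36, 0.49 and -0.36, none past 1.5-fold. The class held 2 clusters, and with the combination Klf2 was 0.40 in 1 and -0.91 in the other, on 32 cells. That second cluster, led by Clnk, Bcl2 and Txk, made up 31.6%, 24.6%, 16.3% and 8.33% of NK-like cells. With equal weight per cluster the combination difference was 0.08, the STING agonist difference 0.26 and the LTβR agonist difference -0.46. Over the whole class the combination exceeded the LTβR agonist alone by 0.85. In B- and plasma-like cells Klf2 was 849 CPM (760 to 946) untreated, 557 CPM (515 to 602) with the LTβR agonist and 803 CPM (774 to 832) with the combination. The LTβR agonist library was lowest, at a log2 difference of -0.60 (-0.86 to -0.33). This difference stayed past 1.5-fold under 12 of 16 alternative settings and shrank to -0.26 under 1 of them. In B- and plasma-like cells with a UMI of Ighd, the heavy chain of naive B cells, Klf2 was 1092 CPM untreated and 635 CPM with the LTβR agonist, a difference of -0.77. T cell markers summed to 48.9 CPM in the untreated and 396 CPM in the LTβR agonist B- and plasma-like cells, and their part in this difference was not tested.

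S1pr1 (chr3:115710433-115715072, minus strand) showed no difference past 1.5-fold in any class. In T-like cells it stood at 58.7 CPM (54.2 to 63.5), 66.2 CPM (60.7 to 72.1), 66.6 CPM (61.9 to 71.6) and 61.8 CPM (57.5 to 66.3), and all 4 intervals overlapped. The log2 differences over untreated were 0.15 (-0.06 to 0.36), 0.16 (-0.03 to 0.35) and 0.06 (-0.12 to 0.25). Subsets of T-like cells did not share this order. In T-like cells with a Cd4 UMI and no Cd8a or Cd8b1 UMI (CD4 cells), S1pr1 was 150, 158, 100 and 99.8 CPM, lower in the 2 libraries with LTβR agonist. In cells with a Cd8a or Cd8b1 UMI and no Cd4 UMI (CD8 cells) it was 18.7, 17.2, 31.0 and 34.0 CPM, higher in the same 2 libraries. Within T-like clusters S1pr1 was lower in 6, 6 and 7 of 8 in the 3 treated libraries, of which 2, 0 and 3 were past 1.5-fold. Of the higher clusters, 1, 2 and 1 were past it, up to 1.05 with the combination. With equal weight per cluster the differences were -0.19, -0.12 and -0.45, so their sign was the reverse of that over the class. A T-like cluster led by Lef1, Igfbp4 and Ndrg3, with 10, 3, 30 and 122 cells, held 359 CPM of S1pr1 with the LTβR agonist and 456 CPM with the combination, the highest of all T-like clusters in these libraries.

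Cd69 (chr6:129267325-129275436, minus strand) was highest with the STING agonist in T-like cells. Its level was 152 CPM (144 to 159), 292 CPM (280 to 304), 210 CPM (201 to 219) and 212 CPM (204 to 220). The LTβR agonist and combination libraries lay together between the other 2, and the STING agonist stood alone above all. The log2 difference over untreated was 0.90 (0.78 to 1.02), 0.44 (0.32 to 0.57) and 0.46 (0.34 to 0.58) in the 3 treated libraries in that order, so adding the STING agonist to the LTβR agonist moved Cd69 by 0.01. In 8 of 8 T-like clusters Cd69 was higher with the STING agonist than untreated, 7 of them past 1.5-fold. With the LTβR agonist 6 of 8 were higher (1 past 1.5-fold) and 2 lower (1 past it), from -1.07 to 0.92. With the combination 7 of 8 were higher, 1 past 1.5-fold. With equal weight per cluster the 3 differences were 0.75, 0.17 and 0.32. CD4 cells held 244, 480, 325 and 300 CPM, CD8 cells 103, 193, 117 and 138 CPM, and T-like cells with a UMI of Foxp3, the factor of regulatory T cells, 214, 443, 264 and 357 CPM. The STING agonist library was highest in each of these subsets. The stress genes moved alongside, with a sum of 2163, 3644, 2696 and 2936 CPM in T-like cells, where all 12 were higher with the STING agonist and 8 of 12 were past 1.5-fold. Without the tenth of T-like cells highest in them, the Cd69 difference was 0.53, under the threshold, while that of Klf2 was 0.63.

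NK-like cells held Cd69 at 116, 172, 144 and 131 CPM, again highest with the STING agonist, at a log2 difference of 0.52 (0.20 to 0.85). That difference was 0.72 in 1 NK-like cluster and -0.93 in the other, and 0.03 with equal weight per cluster. The stress genes summed to 2293, 3558, 2684 and 2696 CPM there and all 12 were higher with the STING agonist, and their part in the Cd69 difference was not tested. In macrophage- or monocyte-like cells Cd69 stayed between 59.5 and 67.3 CPM. Across B- and plasma-like cells it was 273, 441, 172 and 287 CPM, and the LTβR agonist library was lowest at a log2 difference of -0.64 (-1.10 to -0.17). The stress genes were lower there too, with a sum of 3783 CPM untreated and 2975 CPM with the LTβR agonist, 1 of 12 higher and 4 of 12 past 1.5-fold downward, and their part in this difference was not tested. The STING agonist value there rested on 35 UMIs of 15 cells, and it lay below untreated, at -0.88, when cells with markers of 2 lineages were left out.

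The opposition of CD69 to the S1P receptor acts on protein, and the 2 transcripts were not exclusive in single cells (plot of S1pr1 detection). Among thinned T-like cells with a Cd69 UMI, 13.5%, 8.21%, 10.7% and 6.38% also held an S1pr1 UMI, against 6.79%, 6.90%, 7.34% and 6.69% of cells without one. In the untreated library the intervals of the 2 shares did not overlap (9.46% to 18.4% and 5.61% to 8.13%), and in the other 3 they did. Cells with a Klf2 UMI held S1pr1 in 19.1%, 17.7%, 15.8% and 16.1%, against 6.14%, 5.07%, 6.67% and 4.94% of cells without one, and these intervals were apart in all 4 libraries. With a Ccr7 UMI the shares were 24.1%, 7.89%, 12.4% and 24.2%, against 7.14%, 7.15%, 7.67% and 5.48% without. With a Cxcr4 UMI they were 19.6%, 14.5%, 11.0% and 10.5%, against 6.03%, 6.08%, 7.28% and 6.04%. All cells were compared at 1000 UMIs, and subsets of T-like cells that hold both genes enter these shares. In thinned NK-like cells S1pr1 was found in 0 to 5 cells with a Cd69 UMI per library, too few to compare.

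**Figure D4:**
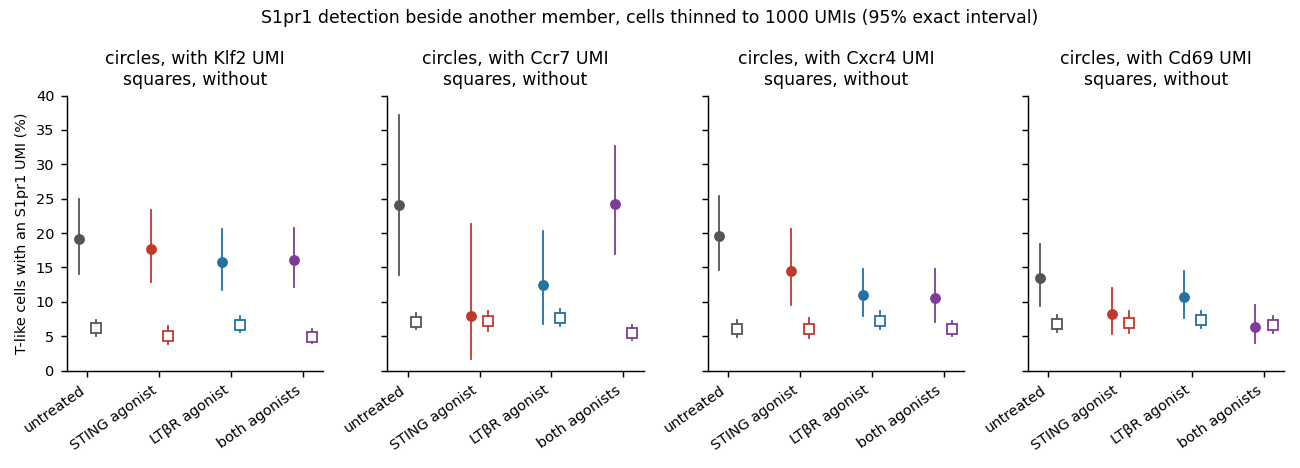
Share of T-like cells with an S1pr1 UMI, in percent, among cells with (circles) and without (squares) a UMI of Klf2, Ccr7, Cxcr4 or Cd69, after thinning to 1000 UMIs per cell; lines are exact 95% intervals. Circles lie above squares in all 4 libraries for Klf2, and only in the untreated library are the intervals apart for Cd69.

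Ccr7 (chr11:99144196-99155077, minus strand), the receptor for CCL19 and CCL21, was the one homing receptor past the threshold in T-like cells. Its level there was 38.1 CPM (34.5 to 42.0), 53.1 CPM (48.2 to 58.5), 61.2 CPM (56.7 to 66) and 71.5 CPM (66.9 to 76.4), lowest untreated and highest with the combination, at a log2 difference of 0.76 (0.56 to 0.96). T-like clusters went both ways, 6 of 8 higher (3 past 1.5-fold) and 2 of 8 lower (both past it, down to -1.01) with the combination. In the cluster led by Penk, Cd4 and Tnfsf11 Ccr7 was 145 CPM untreated and 66.7 CPM with the combination. With equal weight per cluster the combination difference was 0.23, under the threshold. It stayed past 1.5-fold under 15 of 18 alternative settings, and the lowest value was 0.19. The Lef1, Igfbp4 and Ndrg3 cluster held 409 CPM with the LTβR agonist and 547 CPM with the combination. That cluster made up 0.52%, 0.22%, 1.41% and 5.89% of T-like cells, and its part in the class difference was not tested. CD8 cells held 19.3, 50.5, 63.9 and 60.0 CPM, so untreated was lowest, and CD4 cells 109, 53.2, 56.8 and 87.7 CPM, so untreated was highest. In untreated CD4 cells, 57 of 152 Ccr7 UMIs came from 3 cells, and the shares of CD4 cells with a Ccr7 UMI (13.8%, 10.8%, 10.5% and 14.9%) had overlapping intervals.

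**Figure D5:**
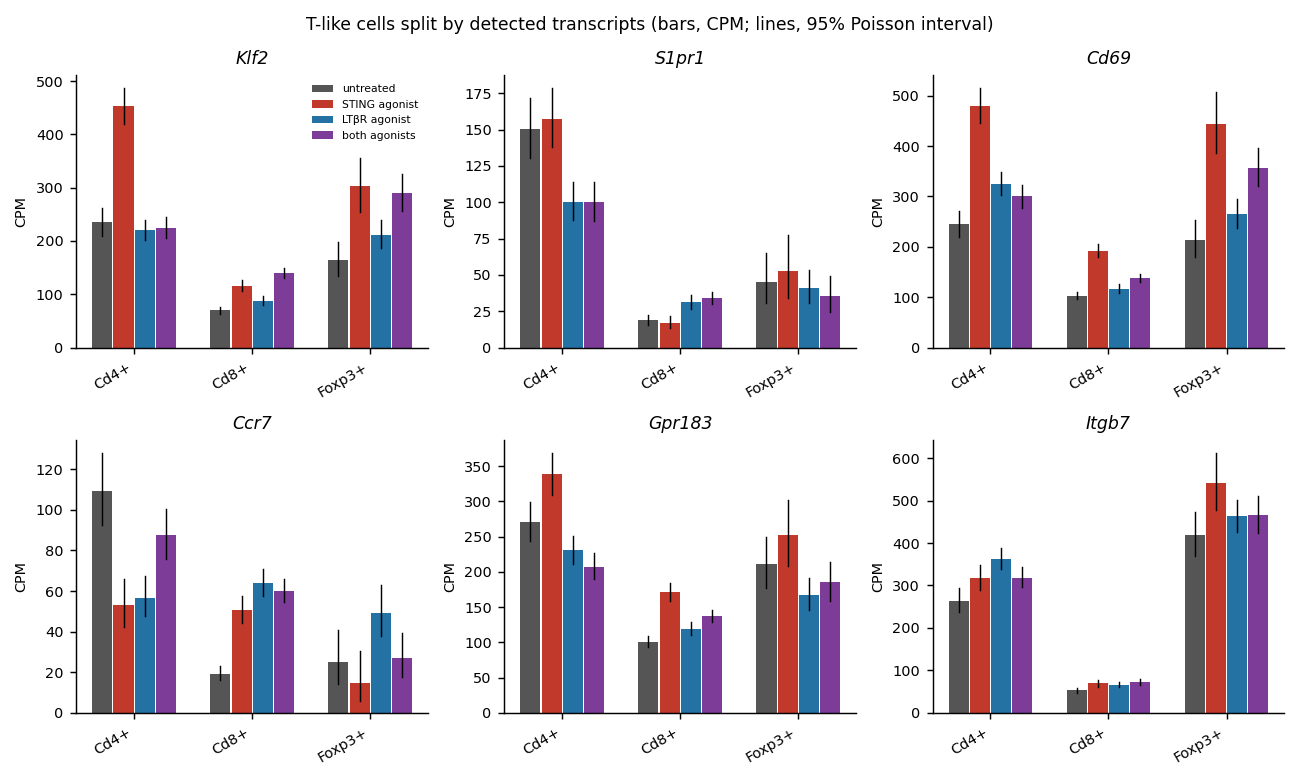
Levels in CPM of 6 of the genes in T-like cells split by detected transcripts into cells with Cd4, with Cd8a or Cd8b1, and with Foxp3 (cells with Foxp3 can also be in 1 of the others); bars start at 0 and lines are exact Poisson 95% intervals. S1pr1 is lower in CD4 cells and higher in CD8 cells in the 2 libraries with LTβR agonist, and Cd69 is highest with the STING agonist in all 3 subsets.

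Dendritic-like cells carried most Ccr7, at 868 CPM (849 to 888), 846 CPM (813 to 879), 604 CPM (585 to 624) and 719 CPM (692 to 746), lowest with the LTβR agonist at a log2 difference of -0.52, under the threshold. It lay mainly in cells with a Fscn1 UMI, which held 3461, 3656, 2656 and 3316 CPM, against 233, 239, 136 and 215 CPM in those without. The Fscn1 cells made up 20.6%, 20.1%, 21.4% and 19.6% of the class, so their share was alike in the 4 libraries. The same cells held Itga4 at 1128, 1034, 1007 and 807 CPM against 242 to 274 CPM in those without Fscn1, and Gpr183 at 359, 312, 223 and 214 CPM. In B- and plasma-like cells Ccr7 was 273 CPM (223 to 330), 303 CPM (194 to 450), 156 CPM (134 to 180) and 259 CPM (243 to 276), lowest with the LTβR agonist at -0.77 (-1.24 to -0.30). The combination exceeded the LTβR agonist alone there by 0.70.

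Cxcr5 (chr9:44511787-44561877, minus strand), the CXCL13 receptor of follicular B cells and follicular helper T cells, was level across treatments in B- and plasma-like cells at 201 CPM (159 to 250), 240 CPM (144 to 374), 199 CPM (174 to 226) and 167 CPM (154 to 180). In T-like cells it was 3.38, 3.40, 9.89 and 8.0 CPM, higher in the 2 libraries with LTβR agonist, at log2 differences of 0.57 (0.30 to 0.83) and 0.43 (0.17 to 0.67) that the added 10 CPM holds down. With 1 CPM added in its place, the differences counted as past the threshold. B cell markers in T-like cells summed to 4.32, 2.27, 9.08 and 19.3 CPM, highest in the combination, and their part in the Cxcr5 difference was not tested. The Cxcr5 gene overlaps Bcl9l on the opposite strand, Gpr183 lies within Ubac2 and Itga4 overlaps Cerkl, each on the opposite strand, and whether the counting used strand is not given in the sources used here, so reads of the partners could be counted in these 3 genes.

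Gpr183 (chr14:121952551-121965195, minus strand), a receptor for oxysterols, was highest with the STING agonist in both T-like and NK-like cells. NK-like cells held 132 CPM (118 to 147), 249 CPM (225 to 275), 108 CPM (97.6 to 120) and 139 CPM (123 to 156), where the STING agonist library stood alone and the log2 difference was 0.87 (0.58 to 1.16). Detection in thinned NK-like cells was 10.7%, 19.9%, 9.67% and 12.7%. The combination was lower than the STING agonist alone by 0.80 on the log2 scale. NK-like cells with a UMI of Itga1 and none of Eomes, a profile of tissue-resident innate lymphocytes, made up 18.0%, 27.6%, 14.4% and 15.4% of the class and held 227, 286, 169 and 208 CPM of Gpr183. Cells with Eomes held 103, 154, 85.6 and 92.6 CPM. The STING agonist library was highest in both subsets, and it also had the larger share of the subset with the higher level. Without the tenth of cells highest in the stress genes the difference was 0.97. In T-like cells Gpr183 was 154, 234, 173 and 182 CPM, with a STING agonist difference of 0.57 (0.44 to 0.70), just under the threshold of 0.58. CD8 cells passed it, with 101, 171, 120 and 137 CPM and a difference of 0.70.

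Cxcr4 (chr1:128588199-128592293, minus strand) did not pass the threshold against untreated in any class. It was nonetheless higher over the T-like class with the LTβR agonist, at 115 CPM (108 to 121), 128 CPM (120 to 136), 170 CPM (163 to 178) and 127 CPM (121 to 134). The log2 difference of that library over untreated was 0.53, and 0.11 with equal weight per cluster. Of 8 T-like clusters, 5 were higher there (2 past 1.5-fold) and 3 lower. In NK-like cells both libraries with LTβR agonist were high, at 213 CPM (195 to 232), 176 CPM (156 to 198), 309 CPM (290 to 328) and 296 CPM (273 to 321), and the combination exceeded the STING agonist alone by 0.72. In macrophage- or monocyte-like cells it was 207, 171, 220 and 245 CPM, lowest with the STING agonist. CD8 cells held 44.0, 47.6, 73.8 and 69.4 CPM and CD4 cells 178, 219, 211 and 146 CPM, so the 2 subsets ranked the libraries differently.

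Itga4 (chr2:79255426-79333123, plus strand), the integrin α4 chain, was lower in all 3 treated libraries in T-like cells and higher in macrophage- or monocyte-like cells. T-like cells held 318 CPM (308 to 329), 247 CPM (236 to 258), 223 CPM (215 to 232) and 251 CPM (242 to 260), with untreated alone on top. The log2 differences were -0.35, -0.49 and -0.33, none past 1.5-fold. It was lower in 7, 8 and 6 of 8 T-like clusters in the 3 treated libraries, of which 1, 2 and 1 were past 1.5-fold. With equal weight per cluster the differences were -0.25, -0.38 and -0.14. The cluster with the most Itga4 in untreated tumors, led by St6galnac3, Themis and Dlg2 at 688 CPM, made up 16.1%, 12.8%, 6.47% and 5.55% of T-like cells. Its cells had a median of 2473.5 UMIs, the lowest of the T-like clusters, and the part of depth in its Itga4 level was not tested. In cells with Foxp3 it was 293, 237, 116 and 194 CPM. Macrophage- or monocyte-like cells held 141 CPM (137 to 145), 159 CPM (152 to 165), 157 CPM (152 to 162) and 220 CPM (213 to 228), with the combination alone on top at 0.61 (0.52 to 0.70). Unlike Klf2, Itga4 differed little inside the clusters of that class. None of the 9 clusters passed 1.5-fold with the combination, and with equal weight per cluster the difference was 0.13. In the untreated library Itga4 was 697 CPM in the Ace, Adgre4 and Ear2 cluster and 117 CPM in the C1qb, C1qa and C1qc cluster, whose shares of the class differed between libraries as given above. In neutrophil-like cells Itga4 was 207, 180, 150 and 330 CPM, the last on 62 UMIs of 68 cells, with a difference of 0.65 (0.05 to 1.24). Macrophage markers summed to 2731, 2023, 3851 and 6515 CPM in neutrophil-like cells, highest in the same library, and their part in this difference was not tested.

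The 250 bases before the Itga4 start site (chr2:79255176-79255425, plus strand, RefSeq on GRCm38.p6) are shown because Itga4 and Klf2 were the 2 genes past the threshold in macrophage- or monocyte-like cells. The capitals mark the same letters, CACCC or GGGTG. They occur 4 times in this window, beginning 166, 56, 44 and 27 bases before the start site. The windows of Cxcr4, Gpr183 and Itgb7 held 1, 0 and 4.

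Itga4 promoter: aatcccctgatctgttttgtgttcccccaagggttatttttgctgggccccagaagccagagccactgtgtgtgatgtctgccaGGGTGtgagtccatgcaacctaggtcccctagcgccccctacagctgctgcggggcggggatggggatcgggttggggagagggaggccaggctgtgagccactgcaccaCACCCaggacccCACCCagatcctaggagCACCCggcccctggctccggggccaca

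Itgb7 (chr15:102215995-102231944, minus strand), the integrin β7 chain, was higher over the whole T-like class in all 3 treated libraries, the reverse of Itga4. Its level was 124 CPM (118 to 131), 172 CPM (163 to 181), 185 CPM (177 to 193) and 157 CPM (150 to 164), at log2 differences of 0.44, 0.54 and 0.31. Within T-like clusters it was higher in 7, 5 and 5 of 8, of which 1, 0 and 0 were past 1.5-fold. With equal weight per cluster these differences shrank to 0.24, 0.10 and 0.05. In macrophage- or monocyte-like cells it was 72.5, 85.9, 51.6 and 62.9 CPM, lowest with the LTβR agonist. Among CD4 cells, CD8 cells and cells with Foxp3, the last held the highest Itgb7, at 419, 542, 463 and 465 CPM. CD8 cells held the lowest of these, at 53.1, 69.3, 66.5 and 72.9 CPM. A T-like cluster led by Il17a, Cd163l1 and Il1r1 held 459, 469, 416 and 352 CPM. As the Foxp3 cells made up 6.70%, 7.04%, 12.5% and 7.29% of T-like cells, the class level mixes subsets in unlike shares. In dendritic-like cells Itgb7 was 153, 183, 130 and 117 CPM and the combination was 0.60 below the STING agonist alone.

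For each gene the difference with 1 agonist was set against that in the presence of the other, with 1 library per group. No gene in any class moved past 1.5-fold in opposite directions with and without the other agonist. In T-like cells Cd69 moved by 0.90 with the STING agonist alone and by 0.01 on top of the LTβR agonist, a gap of -0.89 on the log2 scale. The gap was -0.65 for Cd69 and -0.54 for Gpr183 in NK-like cells and -0.70 for Klf2 in dendritic-like cells. It was -0.66 for Itgb7 in T-like cells. For Itga4 it was 1.27 in neutrophil-like cells and -0.89 in B- and plasma-like cells, both with few cells in a library. The stress genes summed to 2163, 3644, 2696 and 2936 CPM in T-like cells and 2293, 3558, 2684 and 2696 CPM in NK-like cells. Their part in these gaps was not tested. For Klf2 in macrophage- or monocyte-like cells, by contrast, the STING agonist added 0.82 alone and 0.99 on top of the LTβR agonist.

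Companion genes of the same pathway were egress regulators, entry adhesion molecules, retention genes, homing receptors and ligands. Across the 6 classes 7 of 79 measured companion and class pairs passed 1.5-fold under STING agonism (8.86%), 9 of 86 under LTβR agonism (10.5%) and 10 of 86 when both were given (11.6%), against 2.9%, 2.94% and 5.25% of all gene and class pairs. Here too the pooled shares weigh the classes differently. Under STING agonism 3 of the passing pairs were in B- and plasma-like cells, where 33.2% of all genes passed. In T-like cells 0 of 16 passed with the STING agonist (1.67% of all genes), 1 upward and 1 downward of 16 under LTβR agonism (1.84%) and 0 of 16 when both were given (1.59%). The pair with the LTβR agonist was Itgae, the αE integrin chain of epithelial retention, higher at 1.01, and Itga1, a collagen-binding integrin chain, lower at -0.66. In NK-like cells 2 of 13 passed upward with the STING agonist (3.56%), namely Rgs1, a brake on chemokine receptor signaling, at 0.70 and Cxcr6, a receptor of resident lymphocytes, at 0.88. A single gene of 14 passed upward with the LTβR agonist there (1.14%), S1pr5, an egress receptor of NK cells, at 0.61. The combination gave 1 of 13 in NK-like cells, downward (4.62%), namely Foxo1, a factor upstream of Klf2 in lymphocytes, at 224 CPM untreated and 125 CPM with the combination (-0.80). Itgae, Cxcr6 and S1pr5, and the values of Itga1 in T-like and Rgs1 in NK-like cells, were chosen after values were seen. In macrophage- or monocyte-like cells 0 of 16 passed with the STING agonist (0.19%), 1 of 18 upward with the LTβR agonist (1.48%), and 1 upward and 2 downward of 17 with the combination (2.68%). Vcam1, which encodes a ligand of the α4 integrins, was 3.18 CPM untreated, 16.3 CPM with the LTβR agonist and 25.0 CPM with the combination, at log2 differences of 1.00 and 1.41. Rgs1 was 957 CPM untreated and 530 CPM with the combination (-0.84), and Itga1 was 34.1 and 14.9 CPM (-0.82).

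Genes with a like pattern were listed as a description, by Pearson's r of log2(CPM + 10) among 2795 genes over 24 points, 6 classes by 4 libraries, that share libraries and depth. Klf2 levels were most like those of Adgre5 (r = 0.907), Ezr (0.875) and Tsc22d3 (0.865), and S1pr1 levels like those of Rps27 (0.940), Grk6 (0.931) and Nfatc3 (0.926). For Cd69 they were Smap2 (0.920), Cd37 (0.889) and Grk6 (0.883). The homing receptors stood nearest to Phlpp1 (0.897), Ppp1r11 (0.872) and Tmem123 (0.848) for Ccr7, to Rasgrp2 (0.922), Ighm (0.909) and Atf6 (0.880) for Cxcr5, and to Eif3f (0.931), Tob2 (0.921) and Mark3 (0.918) for Gpr183. Cxcr4 had the lowest values, with Sipa1l2 (0.829), Cd84 (0.816) and Rybp (0.815). The integrin chains stood nearest to St8sia4 (0.861), Supt6 (0.861) and Gpbp1 (0.855) for Itga4 and to Gnas (0.956), Ppp6r1 (0.928) and Tle5 (0.912) for Itgb7. Over the 12 differences from untreated in T-, NK-, macrophage- or monocyte- and dendritic-like cells, which share the untreated library, 6701 genes were ranked. Klf2 was most like Rap1a (0.925), Mink1 (0.889), Adgre5 (0.886), Ezr (0.884) and Fam98a (0.876). Cd69 was most like Ppp1r15a (0.96), Dusp1 (0.947), Ier5 (0.924), Cdc42 (0.921) and Ubald2 (0.919), of which Dusp1 is on the stress list. Cxcr4 was most like Thoc7 (0.853), Tdrd7 (0.850), H2afj (0.848), Dgkb (0.835) and Mepce (0.828).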

How the data were processed

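Live CD45+ cells from pooled KPC tumors of 4 groups were profiled with 1 droplet library per group. The authors deposited 1 matrix of UMI counts per gene and cell with 192887078 UMIs in all, and a library suffix on each barcode gave the sample. The submitters' processing notes name Cell Ranger 7.1.0 and mm10. Whether counting used strand, and whether intronic reads were counted, is not given in the sources used here. The deposited counts were used as they are.

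Cells with 300 to 5000 genes and at most 6% mitochondrial UMIs were kept (23011 of 24839, 92.6%). Clustering used scanpy 1.11.5, igraph 0.11.9, scikit-learn 1.9.0 and anndata 0.12.19 in Python 3.11.15, with 2000 variable genes (none of the 9 genes, their companions or V(D)J segments), 30 components, 20 neighbors and Leiden resolution 1, which gave 27 clusters. Clusters were named from marker lists with limits set after the clusters were seen, namely at least 3 markers each found in 20% of cells, no other class with more markers among the 10 leading genes, and fewer than 50% of cells with markers of 2 lineages. These names were rebuilt here and can depart from the study's own. Doublets were kept, and leaving out cells with a Scrublet score of 0.2 or more was an alternative.

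UMIs were summed per class and library and given as CPM with exact Poisson 95% intervals, and shares with exact Clopper-Pearson 95% intervals (scipy 1.17.1, numpy 2.4.6, pandas 2.3.3). Log2 ratios used CPM + 10, and their intervals set opposite exact bounds against each other. Genes with at least 50 UMIs in 1 of the 2 libraries were compared. Cells were thinned to 1000 UMIs for shares, and shallower cells were left out. Subsets were set by detected transcripts, so a cell with few UMIs can miss its subset. With 1 library per group there was no test. The ratio and interval code was tested on simulated data. Plots were drawn with matplotlib 3.10.9.

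All 9 genes were named in every class, companion genes were named where past 1.5-fold under the combination in T-, NK- or macrophage- or monocyte-like cells, and the most alike genes by rank. The results of 1 companion gene are not reported here, and it was left out of the companion counts. The genes and lists were chosen with earlier results of these data known. Of the companions, Ccl19 and Ccl21a were on 2 rows each and Znf683 was not found, and these were left out. Gene coordinates are from GENCODE and promoter sequences from RefSeq.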

Additional observations from a re-analysis of the deposited data

Results flagged for a closer look

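Klf2 differed in direction between classes with the LTβR agonist, at a log2 difference from untreated of -0.60 in B- and plasma-like cells and 1.15 in macrophage- or monocyte-like cells. The B- and plasma-like value stayed past 1.5-fold under 12 of 16 alternative settings. The difference between the classes was not tested, since each group was 1 library.

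Ccr7 differed in direction between T cell subsets. With the STING agonist it was -0.92 in CD4 cells and 1.05 in CD8 cells, and with the LTβR agonist it was -0.84 in CD4 cells and 1.33 in CD8 cells. Neither difference between subsets was tested, and the untreated CD4 level rested on 152 UMIs in 42 cells, 57 of them in 3 cells.

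Cells of the unnamed clusters, which entered no comparison of classes, also held more Klf2 and Cd69 than in the untreated library. Klf2 was 85.7 CPM untreated and 297 CPM with the STING agonist, a log2 difference of 1.68, and it was 1.43 with the combination. Cd69 was 111 CPM untreated and 308 CPM with the STING agonist, a difference of 1.40. Most of these cells showed T cell and macrophage markers together.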

How the results depend on the processing

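No paired analysis was possible because the labels give 1 library per group and no replicate numbers. The 17 gene and class pairs past 1.5-fold gave 282 values under the alternatives, of which 246 stayed past 1.5-fold and 4 changed direction. These 4 lay in the 15 B- and plasma-like cells of the STING agonist library, where Gpr183 was -0.19 without cells with markers of 2 lineages and Cd69 was -0.88 without those cells, -0.30 as a mean of the CPM per cell and -0.41 without the tenth of cells highest in stress genes. In single clusters, the macrophage- or monocyte-like cluster led by Hspa1b gave -0.16 for Klf2 with the STING agonist, -0.075 for Klf2 with the LTβR agonist and -0.055 for Itga4 with the combination, and Itga4 was also -0.019 and -0.084 in 2 further clusters. Among T-like clusters Ccr7 with the combination ran from -1.01 to 1.25, with 2 of 8 past 1.5-fold downward.

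The count of pairs past 1.5-fold with the LTβR agonist was 7 with 1 CPM added and 2 with 50 CPM added in place of 10. With the combination it was 1 with 50 CPM added and 8 with no minimum on UMIs. With the STING agonist it was 4 with equal weight per cluster, where the B- and plasma-like class had too few cells for a value. Leaving out classes with under 100 cells in a library, an alternative chosen after seeing the data, gave 5 with the STING agonist and 1 with the LTβR agonist. Counting the largest unnamed cluster as T-like or as macrophage- or monocyte-like was also chosen after seeing the data. Beyond the alternatives' own construction, the cause was not tested. Counting intervals do not cover the spread between animals or libraries.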
